A study of Homo sapiens with 6 samples.

Results

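The replication-dependent histone genes were followed in RNA-seq libraries of MUM2B cells with and without raised LACTB. They were taken as every gene whose symbol follows the older human pattern for clustered histone genes (HIST, a cluster number from 1 to 4, the histone class and up to 2 letters), which gave 73 of the 58735 genes in the deposited tables. These were 6 H1, 15 H2A, 23 H2B, 14 H3 and 15 H4 genes, 68 of them protein coding and 5 pseudogenes in GENCODE 29. On GRCh38, 55 lie on chromosome 6, 17 on chromosome 1 and 1 on chromosome 12. MUM2B is a human cell line that the labels give as melanoma, and the study set cells that stably carry an empty vector (libraries EV1, EV2 and EV3) against cells that stably overexpress LACTB (LACTB1, LACTB2 and LACTB3). LACTB is a mitochondrial protein related to bacterial beta-lactamases. All cells were grown in RPMI 1640 with 10% serum, no drug is named, and the sources used here do not name the promoter of the vector or say whether the lines are single clones. Separate cultures are not named in the labels for the libraries of a group, and p-values therefore speak for the spread among these libraries alone, which may be technical.

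Histones are the proteins around which DNA is wrapped. A nucleosome holds pairs of H2A, H2B, H3 and H4, and the linker histone H1 binds where DNA enters and leaves it. Replication-dependent histone genes lie in clusters, are transcribed mainly in S phase, and give short mRNAs without introns. Unlike other mRNAs, these usually end not in a poly(A) tail but just after a conserved stem-loop, which the stem-loop binding protein SLBP holds. U7 snRNP takes part in the cleavage. Some of the same genes can also use a poly(A) signal further downstream, and replication-independent variants such as H3.3 are made from ordinary polyadenylated mRNAs.

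Depth and identity were checked first. The reads behind each FPKM value could be recovered, and 16978799 to 18395631 reads fell in genes per library. LACTB itself stood at 3.81, 3.39 and 4.71 FPKM in EV1, EV2 and EV3 and at 173.9, 169.3 and 161.5 FPKM in LACTB1, LACTB2 and LACTB3, which accords with the labels. Of 15 melanocyte markers, 14 were under 1 FPKM and 3 of these at 0 in all libraries, so the labelled melanoma origin was not visible in these genes. The exception, RAB27A, was at 6.0 ± 0.158 FPKM with the empty vector and 4.85 ± 0.266 with LACTB (SD, n = 3 each), and fell. In the fit on reads, TYRP1, a pigment enzyme, had 59 reads against 128 and rose (voom adjusted p = 0.00343; lost at 0.0642 with no filter, range 0.00212 to 0.0642 over 8 alternatives). MITF, the melanocyte master regulator, had 254 against 331 (voom adjusted p = 0.0385), a call kept in 1 of 8 alternatives (range 0.0216 to 0.318) and lost without EV1 (0.148), EV2 (0.0964), LACTB1 (0.115), LACTB2 (0.0608) or LACTB3 (0.071). All 10 markers of immune, stromal, endothelial and epithelial cells were under 1 FPKM, with a summed level of 0.695 to 0.822 FPKM with the empty vector and 0.486 to 0.704 with LACTB. Of these PECAM1, an endothelial marker, fell from 164 to 61 reads (voom adjusted p = 0.00033, and 0.000516 to 0.0237 over 7 alternatives). What part shifts of such markers have in the histone values was not tested. EV3 differed most from the other libraries of its group, with 3.61% of its reads in mitochondrial genes against 4.65% to 5.62% elsewhere.

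The end of the mRNA is where these genes differ from others, so the stem-loop and the poly(A) signal were read from the GENCODE 29 transcript models. A match to the histone stem-loop was found in a model of 33 of the 73 genes, of which 30 are protein coding, against 0.143% of the 19634 other protein-coding genes. In 34 of the 68 protein-coding histone genes the model ends at the stop codon, so that no stem-loop could be found. Of the 25 whose model goes on for over 150 bases, 24 held a match. The sites of the genes above 1 FPKM, and of 2 more that were called in a fit on reads, are shown 5′ to 3′, with the 16 bases of the stem and loop in capitals.
HIST1H2AC: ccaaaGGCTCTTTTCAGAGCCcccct
HIST1H2BD: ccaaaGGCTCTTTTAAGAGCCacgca
HIST3H2A: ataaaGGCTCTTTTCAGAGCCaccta
HIST1H4I: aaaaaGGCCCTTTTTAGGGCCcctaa
HIST2H2BE: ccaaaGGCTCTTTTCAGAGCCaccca
HIST1H2AE: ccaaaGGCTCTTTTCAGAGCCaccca
The form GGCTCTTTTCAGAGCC was the most frequent, in 16 genes. The form in HIST1H4I, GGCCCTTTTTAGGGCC, was held by 2 other H4 genes, HIST2H4A and HIST2H4B. HIST1H2BJ, HIST1H2BK and HIST1H1C have no such site to show, and the models of HIST1H2BK and HIST1H1C hold the coding sequence only. HIST1H1E, also called in the fit on reads, had no match either, with 57 bases after the stop codon in its model.

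Several models hold a poly(A) signal, AATAAA or ATTAAA, within their last 40 bases, some of them downstream of a stem-loop. In HIST1H4J the signal lies before the stem-loop, and the model ends 6 bases after the stem-loop. A signal within the last 40 bases stood in a model of 30.9% of the protein-coding histone genes, against 84.1% of other protein-coding genes. The 30.9% depends on how far the models reach. The signal stood in 0 of the 34 genes whose model ends at the stop codon. It stood in 1 of the 9 with 1 to 150 further bases and in 20 of the 25 with over 150. It is shown in capitals for the genes above 1 FPKM, or called in a fit on reads, that hold it, for HIST1H2BD from its spliced model.
HIST1H2AC: aggtAATAAAaggtaatgcaaagg
HIST1H2BD: aattAATAAAatctgcggagaatt
HIST1H2BJ: aatgAATAAAgtaatattcctctg
HIST2H2BE: tattAATAAAgttaccaattaatt
HIST3H2A: tgatATTAAAagtatttatgatct
HIST1H2BD has a 496-base model that holds the stem-loop and also a poly(A) signal in its last 40 bases, and a spliced 789-base one with a poly(A) signal alone. In the 950-base model of HIST1H2BJ the first exon ends just after the stop codon and is spliced onward, so that it holds no stem-loop. A deposited value is 1 per gene, and reads of the different ends cannot be separated here.

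How far a model reaches past the stop codon went with how many reads the gene had. In 34 of the 68 protein-coding genes the model ends at the stop codon, and 13 of these were at 0 in all libraries, with a median of 3 reads over the 6 libraries. In 9 genes the model holds 1 to 150 further bases, and their median was 5 reads. In the other 25 it goes on for over 150 bases, with a median of 58 reads, and 2 of these were at 0. The median level per length followed the same order, at 0.0579, 0.0958 and 0.295 FPKM. The main exceptions were HIST1H2BK and HIST1H1C, whose models end at the stop codon and which had 1701 and 646 reads. A longer model collects more reads at the same level, and 14 of the 73 genes share 50% or more of their 150-base windows with another gene's transcript, 8 of them at 0, so the part of either in this order was not tested.

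**Figure D1:**
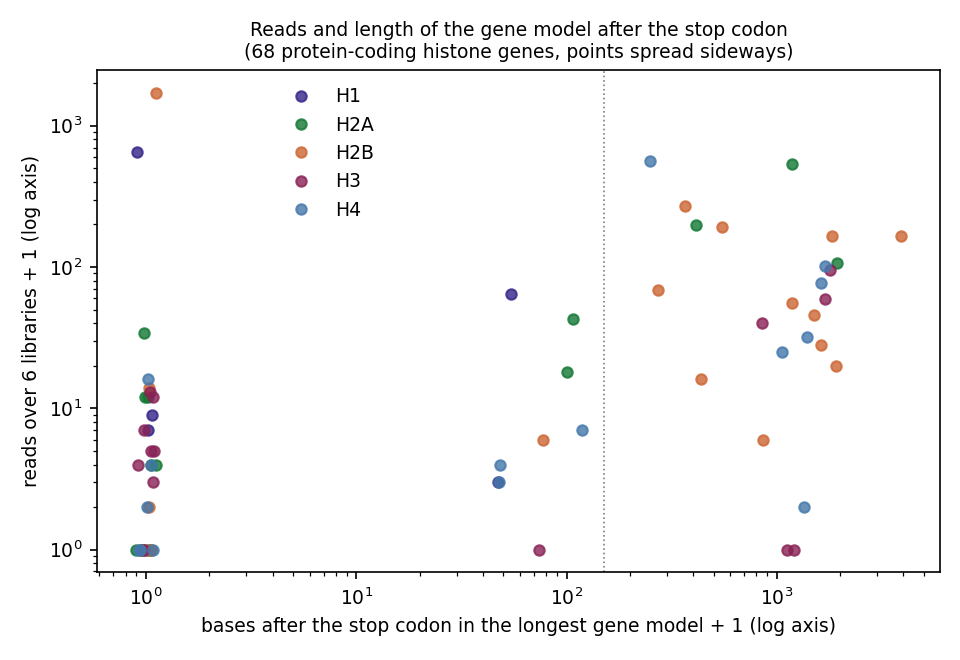
Reads over all 6 libraries (y axis, reads + 1, log scale) against the number of bases after the stop codon in the gene model (x axis, bases + 1, log scale), 1 point for each of the 68 protein-coding histone genes, coloured by class; the dotted line marks 150 bases. Most genes to the right of the line lie above 10 reads, while those whose model ends at the stop codon lie mostly below, apart from HIST1H2BK with 1701 reads and HIST1H1C with 646.

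Most of these genes were at or near 0. Of the 73, 19 had no read in any library, 30 had 1 to 29 reads in all, and 24 had at least 30. Only 7 averaged 1 FPKM or more. The 19 without reads were 6 H2B, 5 H2A, 4 H3, 3 H4 and 1 H1 gene, and a count of 0 allows up to 3 reads over the 6 libraries, or 0.0169 to 0.0945 FPKM depending on the gene's length. That limit covers counting error only. HIST2H3A and HIST2H3C were among the 19, and their transcripts are identical over 100% of the windows, so reads of either could have matched both. RNAs without a poly(A) tail were also mostly low in these libraries, with 17 of 20 under 1 FPKM and 11 of these at 0. The highest of the 20, however, averaged 85.7 FPKM. Their models are only 126 to 699 bases long. What part this length, or reads with several matches, has in their low values was not tested. The sources used here do not say whether poly(A) RNA was selected, so low expression cannot be told apart from loss of mRNAs that have no tail.

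A single gene, HIST1H2BK, which encodes an H2B, made up 54.9% of the summed FPKM of the 73 genes. HIST1H1C, the gene of linker histone H1.2, made up 12.4%. By class, H2B held 65.7% of the summed level, H1 13.7%, H2A 10.5%, H4 7.73% and H3 2.31%. Although nucleosomes hold the 4 core histones in equal numbers, the summed levels differed from 0.970 to 2.65 FPKM for H3 and from 38.8 to 60.5 FPKM for H2B over the libraries. FPKM divides by the length of the model, which is 381 bases for HIST1H2BK and 1294 for HIST1H4I. In reads HIST1H2BK held 1701 of 5805, and H2B, H2A, H4, H1 and H3 held 3068, 953, 826, 725 and 233. The part of model length in these shares was not tested.

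The summed level of the group was higher in every library with LACTB. The summed level was 66.4, 65.6 and 60.4 FPKM in EV1, EV2 and EV3 and 90.3, 84.0 and 89.6 FPKM in LACTB1, LACTB2 and LACTB3. These groups did not overlap, and the means were 64.1 ± 3.24 and 88.0 ± 3.43 FPKM (SD, n = 3 each), a ratio of 1.37. At similar depths, 803, 810 and 801 reads fell in these genes with the empty vector and 1228, 1040 and 1123 with LACTB. In bulk samples more cells that express a gene and more of its mRNA per cell cannot be told apart. The sum did not rest on HIST1H2BK, since without it the other 72 genes summed to 27.9 ± 0.918 and 40.8 ± 3.63 FPKM, a ratio of 1.46. The 49 genes under 30 reads, in contrast, summed to 3.87 ± 0.421 and 3.67 ± 0.205 FPKM, with overlapping groups. No test was made on sums.

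Gene by gene, 6 of the 7 genes averaging 1 FPKM or more rose with LACTB and 0 fell, where 14.8% of all 11875 genes tested rose and 17.2% fell, 32% in either direction (limma on log2(FPKM + 1), Benjamini-Hochberg adjusted p under 0.05). The 6 were HIST1H2AC, HIST1H2BD, HIST1H2BJ, HIST1H2BK, HIST1H1C and HIST1H4I, and the remaining one was HIST3H2A. Their median log2 fold change was 0.49, against -0.01 over all genes tested. All 7 were also above 1 FPKM in the empty-vector libraries alone, the lowest at 1.36. A further fit with limma's voom on the recovered reads, chosen after seeing the data, reached the 24 genes with at least 30 reads. There 9 rose and 0 fell, against 16.9% and 12.8% of 16533 genes (29.7% in either direction), and the added ones were HIST1H1E, HIST1H2AE and HIST2H2BE. HIST1H1E and HIST1H2AE, with 16 and 11 reads in the empty-vector libraries, reached 30 reads only through the LACTB libraries, where they are high, so their rise is not counted as support. Of the 17 genes with at least 30 reads in the empty-vector libraries alone, and equally of the 16 with at least 30 in each group, 7 rose and 0 fell. At an unadjusted p under 0.05, 0 fell in either fit. The other 15 did not pass, 7 with a higher and 8 with a lower mean log2 value with LACTB. Among the 24 genes the groups did not overlap, with LACTB higher, in 9 and, with LACTB lower, in 2, against 21.2% and 21% of all 16533 genes. The 9 include HIST1H1E and HIST1H2AE, which again are not counted as support.

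**Figure D2:**
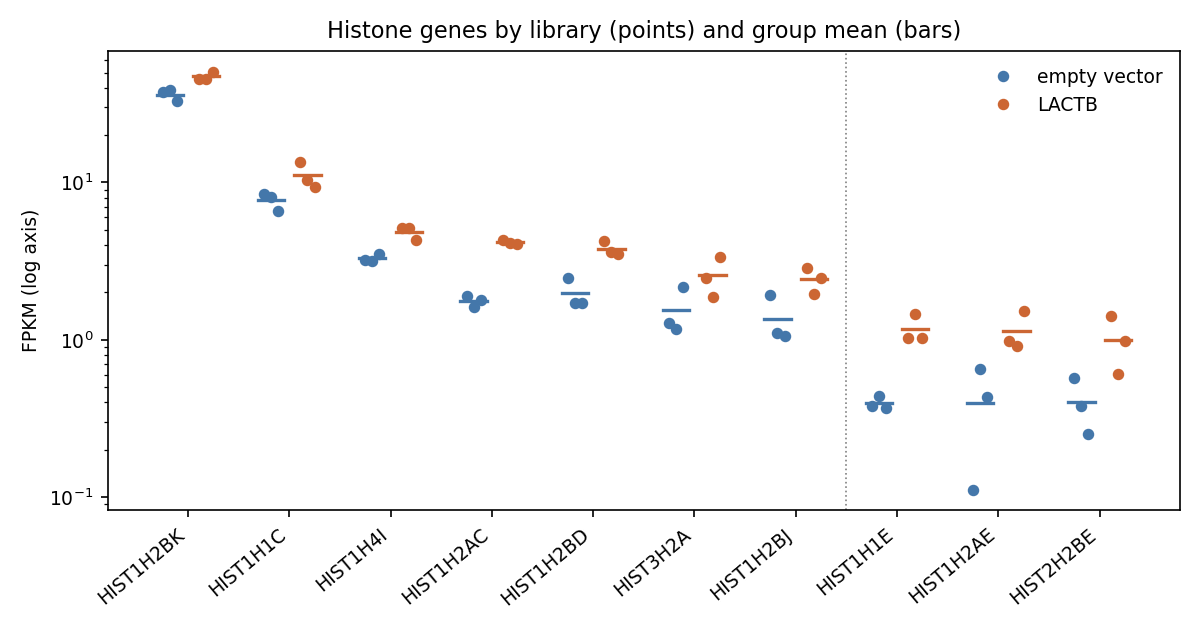
FPKM (y axis, log scale) of the 7 histone genes averaging 1 FPKM or more (left of the dotted line) and of 3 further genes that rose in the read-based fit (right of it), in each empty-vector (blue) and LACTB (orange) library; bars are group means. The orange points lie above all blue points for every gene but HIST3H2A, where LACTB2 at 1.88 FPKM lies below EV3 at 2.17. HIST1H1E and HIST1H2AE entered the read-based fit only through their LACTB reads.

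Among linker histones, HIST1H1C rose, and HIST1H1E was called in the read-based fit, which it entered through its LACTB reads. HIST1H1C, on chromosome 6 at 26055787 to 26056428 (minus strand), was at 8.50, 8.07 and 6.57 FPKM in EV1 to EV3 and at 13.6, 10.3 and 9.35 FPKM in LACTB1 to LACTB3. The groups did not overlap, with LACTB1 the highest, and the log2 fold change was 0.46 ± 0.139 (SE; adjusted p = 0.0409 by limma). Its call was lost without any single library but LACTB3, with limma adjusted p of 0.0522 without EV1, 0.0745 without EV2, 0.101 without EV3, 0.0757 without LACTB1 and 0.0778 without LACTB2 (range 0.0136 to 0.14 over 16 alternatives). HIST1H1E, the gene of H1.4, was much lower, with 5, 6 and 5 reads against 14, 19 and 14, or 0.395 ± 0.0384 and 1.17 ± 0.252 FPKM (SD, n = 3 each). Its ratio of 2.98 rests on 63 reads in all, with a log2 fold change of 1.5 ± 0.42 in voom (adjusted p = 0.00996, and 0.00608 to 0.0422 over 8 alternatives). The 4 other H1 genes had at most 8 reads each, and HIST1H1A had none.

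HIST1H2AC showed the largest change among the 7 genes above 1 FPKM. This H2A gene, on chromosome 6 at 26124145 to 26139116 (plus strand), was at 1.91, 1.62 and 1.80 FPKM with the empty vector and at 4.34, 4.15 and 4.07 FPKM with LACTB. Within each group the libraries were close together and the groups lay far apart, with a ratio of 2.36. The log2 fold change was 0.90 ± 0.0629 (SE) on the log2(FPKM + 1) scale, with a limma adjusted p of 0.000111. In voom, where no pseudocount of 1 FPKM shrinks it, it was 1.27. HIST1H2AE, with 42 reads in all, was at 0.112, 0.650 and 0.436 FPKM against 0.977, 0.914 and 1.53 FPKM. It entered the read-based fit only through its LACTB reads, 31 against 11, so a difference was partly set by the filter. Its groups did not overlap and its log2 fold change in voom was 1.62 ± 0.557 (adjusted p = 0.033), a call lost without EV1 (0.191), without LACTB3 (0.109), with no filter on FPKM (0.118) and with TPM (0.0631), in a range of 0.0314 to 0.191 over 8 alternatives.

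The other H2A genes did not pass. HIST3H2A, the H2A gene of the small chromosome 1 cluster, was at 1.27, 1.17 and 2.17 FPKM against 2.47, 1.88 and 3.35 FPKM. Its groups overlapped because EV3 lay above LACTB2, and the log2 fold change was 0.49 ± 0.191 (SE; adjusted p = 0.0924 by limma). It passed without EV3 (0.0317) and with the replicate number as a block (0.016), in a range of 0.016 to 0.26 over 15 alternatives. HIST2H2AC, with 33 reads in all, went the other way, at 1.17, 1.41 and 0.711 FPKM against 0.708, 0.298 and 0.428 FPKM. The lowest empty-vector value was just above the highest LACTB value, and the voom adjusted p was 0.144. HIST1H2AL, too low to test, had 0, 0 and 1 reads against 3, 4 and 3. As a class, H2A summed to 5.83 ± 0.62 FPKM with the empty vector and 10.2 ± 0.784 with LACTB, which at 1.75 times was the largest ratio of any class.

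Of 10 H2B genes with at least 30 reads, HIST1H2BK, HIST1H2BD, HIST1H2BJ and HIST2H2BE rose and 6 did not pass. HIST1H2BK, on chromosome 6 at 27146418 to 27146798 (minus strand), was at 37.5, 38.5 and 32.8 FPKM against 45.4, 45.6 and 50.6 FPKM. It had the most reads and the smallest fold change of the 6 genes that rose in the first fit, 0.37 ± 0.0724 on the log2(FPKM + 1) scale (SE; adjusted p = 0.00838 by limma), and the groups did not overlap. HIST1H2BD stood at 2.48, 1.71 and 1.72 FPKM against 4.25, 3.60 and 3.51 FPKM. In it EV1 and LACTB1 were the highest of their groups, which did not overlap, and its log2 fold change was 0.70 ± 0.115 (SE; adjusted p = 0.00457 by limma). HIST1H2BK and HIST1H2BD kept their call under every alternative run with them, as did HIST1H2AC and HIST1H4I.

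HIST1H2BJ had values of 1.92, 1.10 and 1.05 FPKM with the empty vector and 2.85, 1.96 and 2.46 FPKM with LACTB. EV1 almost reached LACTB2, so the groups were barely apart, and the log2 fold change was 0.55 ± 0.159 (SE; adjusted p = 0.0369 by limma). The call was lost without EV2 (0.104), EV3 (0.0939), LACTB1 (0.11) or LACTB3 (0.0974), in a range of 0.0108 to 0.131 over 15 alternatives. HIST2H2BE, in the chromosome 1 cluster, had 22, 15 and 10 reads against 56, 23 and 39, or 0.400 ± 0.16 and 1.00 ± 0.4 FPKM (SD, n = 3 each). Its log2 fold change in voom was 1.33 ± 0.364 (adjusted p = 0.00837), in a range of 0.00121 to 0.168 over 8 alternatives. The lowest LACTB library, with 23 reads, was close to EV1 with 22.

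Not every H2B gene was higher with LACTB. HIST1H2BC was at 0.801 ± 0.221 FPKM with the empty vector and 0.719 ± 0.377 with LACTB (SD, n = 3 each), a log2 fold change of -0.20 with a voom adjusted p of 0.778. HIST1H2BH was at 0.226 ± 0.0577 and 0.183 ± 0.0735 FPKM, and HIST1H2BG at 0.243 ± 0.151 and 0.427 ± 0.132. In all 3 the groups overlapped. Of the pseudogenes HIST2H2BC and HIST2H2BD, which overlap each other on chromosome 1 and share 37% and 67.2% of their windows with other transcripts, neither passed. H2B as a class summed to 42.7 ± 3.4 FPKM against 57.3 ± 2.9, and without HIST1H2BK to 6.49 ± 0.674 against 10.1 ± 0.844.

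H3 genes were the one class whose summed level was lower with LACTB. The sum was 2.31, 2.65 and 2.12 FPKM in EV1 to EV3 and 1.39, 0.970 and 1.08 FPKM in LACTB1 to LACTB3, without overlap, on 138 reads against 95. Per library these were 49, 49 and 40 reads against 34, 29 and 32. Much of the lower FPKM sum came from genes with too few reads to test, HIST1H3A, HIST1H3B and HIST1H3C among them. Whether the whole class shares a fall could therefore not be tested. HIST1H3F, HIST1H3I and HIST1H3J had 4, 2 and 4 reads with the empty vector and 0 with LACTB. HIST2H3D had 1 against 2, and 4 H3 genes had no read in any library. No single H3 gene passed the test, and 3 had enough reads for it. HIST1H3G had 12, 13 and 10 reads against 7, 8 and 8, with groups that did not overlap and a voom adjusted p of 0.353. HIST1H3E had 24, 18 and 11 reads against 14, 12 and 15 (adjusted p = 0.652), while HIST1H3H was at 0.225 ± 0.195 and 0.364 ± 0.0448 FPKM, higher with LACTB (adjusted p = 0.202 in voom).

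Most of the remaining H3 reads came from short models of the coding sequence only, where 1 read weighs more in FPKM than in a long model. HIST1H3A had 2, 3 and 1 reads with the empty vector and 0 in every LACTB library, where 0 allows up to 0.136 FPKM over the 3 libraries. HIST1H3B had 5, 2 and 3 reads against 0, 0 and 2, and HIST1H3C had 1, 6 and 1 against 3, 0 and 0. These counts are too small for a test of any one gene. They show an H3 sum spread over many barely detected genes, unlike H2B, where HIST1H2BK dominates.

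In the H4 class HIST1H4I alone was above 1 FPKM. It was at 3.21, 3.15 and 3.52 FPKM against 5.12, 5.12 and 4.30 FPKM, without overlap, and rose with a log2 fold change of 0.44 ± 0.0742 (SE; adjusted p = 0.00478 by limma). The GENCODE model counted here runs from 27138588 to 27139881 on chromosome 6 (plus strand), 1294 bases, while the RefSeq gene spans 397 bases, from 27139282 to 27139678. In RefSeq, HIST1H2BK (H2BC12) spans 27138293 to 27146858 on the minus strand and so covers HIST1H4I. No source used here gives the use of strand in counting, so reads of the 2 genes cannot be told apart there. Without HIST1H4I the other H4 genes summed to 1.67 ± 0.7 FPKM against 1.95 ± 0.297, with overlapping groups, and HIST1H4H, HIST4H4 and HIST2H4B did not pass.

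**Figure D3:**
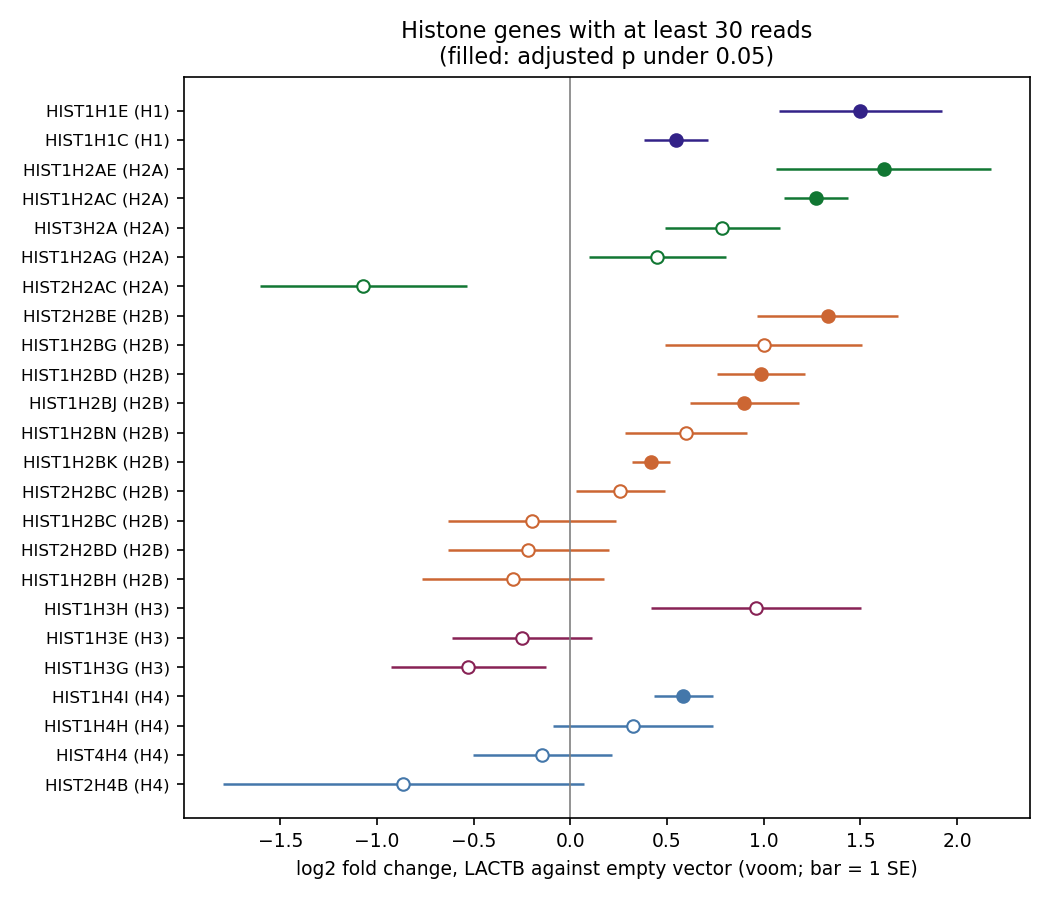
Log2 fold change of LACTB against empty vector (x axis, voom on recovered reads, bar = 1 SE) for the 24 histone genes with at least 30 reads, ordered by class and coloured by it; filled points have an adjusted p under 0.05. The 9 filled points all lie to the right of 0, none of the 3 H3 genes is filled, and the lowest estimate, HIST2H2AC at -1.07, is open.

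Histone genes often lie head to head and share the stretch between their starts, and 12 such pairs were found, all but 1 of an H2A and an H2B gene. In the 4 pairs with at least 30 reads for both genes, 1 gene was called higher in voom and the other did not pass. HIST1H2AC, whose log2 fold change was 1.27 in voom, starts 218 bases from HIST1H2BC, at -0.20. HIST2H2BE at 1.33 starts 322 bases from HIST2H2AC at -1.07. Between HIST1H2BG and HIST1H2AE lie 282 bases, and the values were 1.00 (adjusted p = 0.152 in voom) and 1.62. Both reached 30 reads only through the LACTB libraries, at 20 against 35 and 11 against 31 reads, so this pair is not counted as support. For HIST1H2BJ and HIST1H2AG, 291 bases apart, they were 0.90 and 0.45 (adjusted p = 0.375 in voom). The difference within a pair was not tested.

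Promoters were compared because the genes that rose come from different classes. Over the 150 bases before the RefSeq start, on both strands, the octamer ATTTGCAT, which POU-domain factors such as OCT1 bind, stood in 14 of 18 H2B promoters (77.8%), 5 of 14 H2A, 1 of 12 H3 and 0 of the H1 and H4 promoters. Of all 35116 RefSeq promoters 0.988% hold it. The CCAAT box stood in 84.1% of 63 histone promoters against 23.5% of all, and TATAAA in 54% against 6.71%. By class, the CCAAT box stood in 100% of H1, H2A, H2B and H3 promoters. Only 3 of 13 H4 promoters (23.1%) held it, a share close to that of all promoters. The promoters of 5 of the 6 genes that rose in the first fit are shown 5′ to 3′ on the gene's strand (RefSeq, GRCh38.p14), with these motifs in capitals, read on either strand: HIST1H2BK at chr6:27146859-27147008 (minus), HIST1H2BJ at chr6:27132796-27132945 (minus), HIST1H2BD at chr6:26157971-26158120 (plus), HIST1H2AC at chr6:26124022-26124171 (plus) and HIST1H1C at chr6:26056471-26056620 (minus).
HIST1H2BK: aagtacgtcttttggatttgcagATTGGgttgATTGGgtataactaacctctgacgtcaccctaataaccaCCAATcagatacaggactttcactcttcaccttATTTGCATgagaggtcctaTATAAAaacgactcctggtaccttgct
HIST1H2BJ: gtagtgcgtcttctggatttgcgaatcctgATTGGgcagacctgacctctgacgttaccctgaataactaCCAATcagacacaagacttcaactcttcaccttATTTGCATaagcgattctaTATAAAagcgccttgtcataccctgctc
HIST1H2BD: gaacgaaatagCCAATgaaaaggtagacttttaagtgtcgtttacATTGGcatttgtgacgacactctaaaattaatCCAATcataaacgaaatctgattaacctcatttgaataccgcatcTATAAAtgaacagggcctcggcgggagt
HIST1H2AC: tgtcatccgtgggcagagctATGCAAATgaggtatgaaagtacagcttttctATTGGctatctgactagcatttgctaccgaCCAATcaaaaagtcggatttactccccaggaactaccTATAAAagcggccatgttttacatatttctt
HIST1H1C: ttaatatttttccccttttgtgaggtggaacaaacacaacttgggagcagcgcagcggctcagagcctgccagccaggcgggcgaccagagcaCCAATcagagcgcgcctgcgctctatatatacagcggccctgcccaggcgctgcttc
HIST1H2BK and HIST1H2BJ place the octamer at -46 and -47 and TATAAA at -27 and -28, counted from the start. HIST1H2AC has the octamer in reverse at -130, near the far end of the window, and HIST1H2BD holds no exact octamer. That HIST1H2AC site also lies in the 150 bases before HIST1H2BC, its head-to-head neighbour, which did not pass. A site between head-to-head genes can thus count for both. HIST1H1C holds neither the octamer nor TATAAA and has 1 CCAAT box, at -57. Genes that rose therefore differed in this motif, and a match in letters says nothing of binding in these cells.

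Replication-independent histone genes moved the opposite way. Of 12 such genes 11 were tested, 10 fell and 0 rose, and the median was -0.35 on the log2 scale, against -0.01 over all genes (limma). Over all genes 17.2% fell and 14.8% rose in that fit. In voom 10 of 11 fell and 0 rose as well, against 12.8% and 16.9% of all genes. At an unadjusted p under 0.05 0 rose in either fit. H3F3A and H3F3B, which both encode H3.3, fell, the former from 50.7 ± 1.55 to 39.6 ± 2.42 FPKM, the latter from 124.2 ± 7.09 to 97.6 ± 1.74 (SD, n = 3 each). H1F0, the linker histone of resting and differentiated cells, fell as well, at 194.1, 188.0 and 189.9 FPKM against 162.3, 160.7 and 164.7 FPKM. CENPA, the centromeric H3, fell from 18.01 ± 0.931 to 12.2 ± 0.872 FPKM, and H2AFV, an H2A.Z gene, from 45.0 ± 1.62 to 32.4 ± 1.1 FPKM. H1FX also fell, from 35.3 ± 1.8 to 26.4 ± 2.88 FPKM. H2AFZ, the other H2A.Z gene, did not pass, at 142.0 ± 6.25 and 138.4 ± 8.61 FPKM, and its estimate changed sign without LACTB2 (0.0088).

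**Figure D4:**
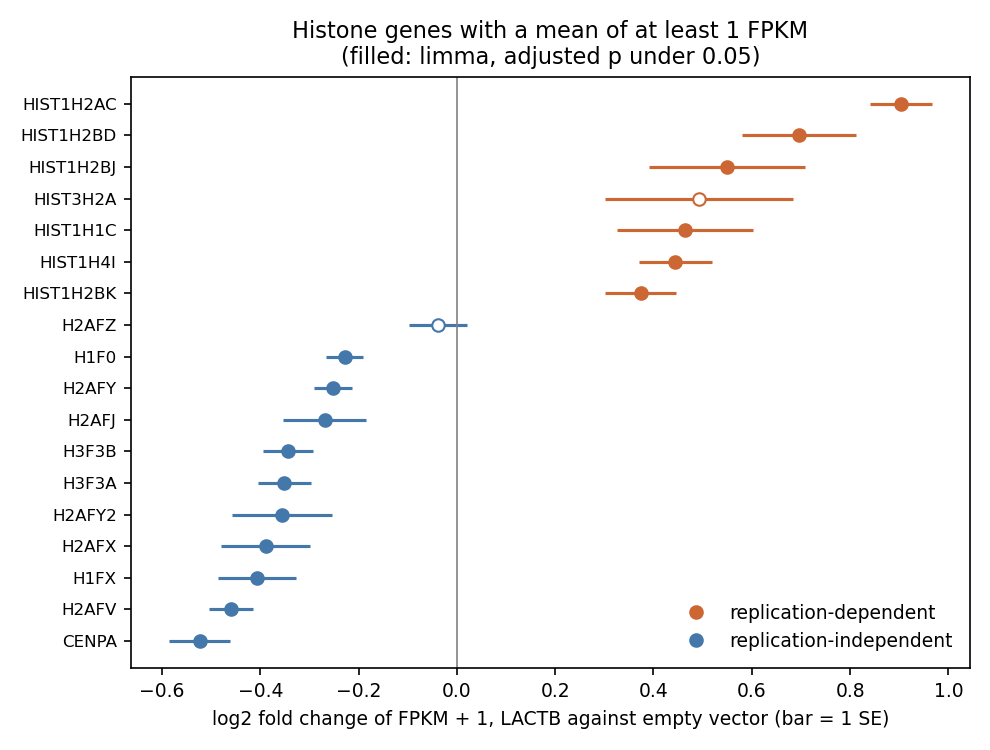
Log2 fold change of FPKM + 1, LACTB against empty vector (x axis, bar = 1 SE, limma), for the 7 replication-dependent (orange) and 11 replication-independent (blue) histone genes averaging 1 FPKM or more; filled points have an adjusted p under 0.05. All orange points lie to the right of 0, from 0.37 for HIST1H2BK to 0.90 for HIST1H2AC, and all blue ones to the left, down to -0.52 for CENPA; H2AFZ, at -0.04, is open.

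H2AFX, counted above among the 10 variants that fell, shares a trait with the clustered genes, since its mRNA can end at a stem-loop or in a poly(A) tail. It was at 112.2, 104.5 and 87.3 FPKM with the empty vector and 73.5, 76.5 and 80.4 with LACTB, without overlap, and fell, by limma, with an adjusted p of 0.0172 and a log2 fold change of -0.39. This call was lost without EV2 (0.0537), LACTB1 (0.0558) or LACTB2 (0.0559), in a range of 0.00048 to 0.0688 over 16 alternatives. Its direction was thus opposite to that of the 6 clustered genes that rose.

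Genes that make and process histone mRNA were given by lists. Of 12 transcription genes 2 rose, 6 fell and 4 did not pass, and their median was -0.17 on the log2 scale, against -0.01 over all genes (limma). These shares stand beside 14.8% and 17.2% over all genes. CCNE1, 1 of 2 cyclin E genes, whose kinase acts on NPAT, rose from 1.01 ± 0.166 to 1.68 ± 0.0933 FPKM. The other, CCNE2, was higher and went the other way, from 7.17 ± 0.606 to 5.98 ± 0.417 FPKM (limma adjusted p = 0.0488), but the call was lost without EV2 (0.137), EV3 (0.103), LACTB1 (0.0603), LACTB2 (0.102) or LACTB3 (0.141), in a range of 0.0314 to 0.148 over 16 alternatives. The kinase of both cyclins, CDK2, fell from 31.8 ± 1.19 to 25.9 ± 0.554 FPKM. CCNA2 fell from 66.7 ± 1.21 to 47.2 ± 3.21 and E2F1 from 20.6 ± 0.0715 to 15.2 ± 1.19. NPAT, the coactivator of histone loci, was at 5.86 ± 0.335 and 5.56 ± 0.364 FPKM (limma adjusted p = 0.463), and its partner CASP8AP2 at 5.36 ± 0.432 and 5.47 ± 0.207 (0.78). HINFP, which binds H4 promoters, was at 1.77 ± 0.062 and 2.21 ± 0.142 FPKM, and its call (limma adjusted p = 0.0457) was lost whichever library was left out (0.0611 to 0.151).

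Among 21 genes of 3′ end processing 1 rose, 8 fell and 12 did not pass, with a median of -0.14, where 14.8% of all genes rose and 17.2% fell. ZNF473, the U7 snRNP-associated zinc finger protein, rose from 2.60 ± 0.0785 to 3.84 ± 0.301 FPKM. SLBP itself was at 45.3, 46.8 and 50.1 FPKM against 42.9, 41.9 and 42.0, with groups apart and a log2 fold change of -0.16 (limma adjusted p = 0.0355). Its call was lost without EV2 (0.0735), EV3 (0.0578), LACTB1 (0.0647), LACTB2 (0.116) or LACTB3 (0.0978), in a range of 0.0266 to 0.259 over 16 alternatives. NCBP2, a subunit of the cap-binding complex, fell from 32.1 ± 2.58 to 26.0 ± 0.512 FPKM. Of 16 decay genes 2 rose, 3 fell and 11 did not pass, with a median of -0.04, shares close to those over all genes (14.8% and 17.2%). DCP2, the decapping enzyme, fell from 8.20 ± 0.453 to 6.43 ± 0.181 FPKM.

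Genes that act beside new histones at the replication fork were mostly lower or not called. Of 36 replication fork genes 20 fell, 1 rose and 15 did not pass, where 17.2% of all genes fell and 14.8% rose, with a median of -0.21 against -0.01 over all genes (limma). FEN1, the flap endonuclease of lagging-strand synthesis, fell from 77.4 ± 2.66 to 51.6 ± 2.41 FPKM (SD, n = 3 each). Of 23 histone chaperones tested 9 fell, 0 rose (1 at an unadjusted p under 0.05, and 1 in voom) and 14 did not pass, with a median of -0.07 (limma). ASF1B, which hands H3 and H4 to the assembly machinery, fell from 38.7 ± 2.18 to 26.7 ± 0.534 FPKM, and MCM2, a helicase subunit that also binds H3 and H4, from 27.4 ± 0.824 to 20.8 ± 0.828.

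RNAs that lack a poly(A) tail were followed as a list of 20. Of these, 11 were at 0 in all libraries and 3 averaged 1 FPKM or more. SNORA73B rose, at 14.5, 15.4 and 19.6 FPKM against 29.2, 25.4 and 24.3 (limma adjusted p = 0.00618), and the other two did not pass. The summed level of the list was 74.6 to 162.1 FPKM with the empty vector and 91.1 to 110.9 with LACTB, with overlapping groups. Its part in the higher level of histone genes was not tested.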

How the data were processed

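RNA-seq was compared between 3 empty-vector and 3 LACTB libraries. Per the labels' protocols, RNA was extracted with Trizol and libraries were made with a NEBNext Ultra RNA kit and read as 150 bp pairs. The submitters' processing notes name GRCh38, DESeq2 1.16.1, featureCounts 1.5.0-p3 and HISAT2 2.0.5, without roles. Read filters, strand and the treatment of reads with several matches are not stated in the sources used here. The authors deposited FPKM values (fragments per kilobase of exon, scaled for library size) for 58735 genes, all matched to GENCODE 29. Library size and gene length were thus already divided out.

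limma 3.58.1 in R 4.3.3 (eBayes with trend) was fitted on log2(FPKM + 1) to 11875 genes averaging 1 FPKM or more, with Benjamini-Hochberg adjustment and a threshold of 0.05. Fold changes on that scale understate changes of low genes. FPKM times exon length gave whole reads for 100% of values above 0 (within 0.1 reads), and voom on these reads of genes with at least 30 reads was added after seeing the data. Alternatives were another pseudocount, other filters, TPM, median-of-ratios scaling, no variance trend, a replicate block, a stricter threshold and leaving out single libraries. Libraries of one group differed by a chi-square per degree of freedom of 2.02 to 12.4, so none was counted as a duplicate. The fit was tested on simulated data with 200 changed genes. The changes were placed only in genes with more reads than most histone genes had, and the spread was set beforehand. The simulation thus does not speak for the lower histone genes.

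The histone genes and the lists were chosen with earlier results of these data known. Named were the histone genes above 1 FPKM or past the threshold, the up to 4 highest of each class, LACTB, SLBP, NPAT, CASP8AP2 and 6 histone variants, and up to 2 risen and 2 fallen genes per list, by the smallest p. Of these, the decay genes TUT7, XRN1 and ERI1, the processing gene SNRPD3 and the replication gene RFC3, whose calls were lost without single libraries, are given with the alternatives. A gene that the rule names is not reported here. Other histone genes, CCNE2, CDK2, TYRP1, MITF and PECAM1 were named after their values were seen. Promoters came from RefSeq (63 of 73 genes) and transcript sequences from GENCODE 29.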

Additional observations from a re-analysis of the deposited data

How the results depend on the processing

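Of the 7 histone genes above 1 FPKM, 4 to 5 rose with each library left out in turn, 5 without HIST1H4I and HIST2H2BC, and 2 where a mean of 5 FPKM was required, which only HIST1H2BK and HIST1H1C reach. None of the histone genes fell under any alternative. Over all genes, those that rose numbered 1155 at a mean of 5 FPKM, 847 at an adjusted p under 0.01, 2791 in voom with at least 30 reads, and 1115 to 1505 with a library left out. The genes that fell numbered 1295 with TPM, 1004 at an adjusted p under 0.01 and 1388 to 1800 with a library left out. Of all calls 46.3% were higher with LACTB, against 56.9% in voom with at least 30 reads. The median log2 fold change over all genes was -0.01 and 0.03 in these fits, which are scaled differently. Voom took summed reads as library sizes. The sizes behind the FPKM were 0.983 to 1.011 times the reads in genes with the empty vector and 1.013 to 1.019 times with LACTB. The part of this scaling in the calls was not tested. Replicate numbers did not pair the libraries (correlations of -0.126, 0.0194 and -0.0438), and with the replicate block 7 of 7 histone genes, 1155 of all genes rose and 1324 fell. In voom the 9 histone genes that rose became 7 without LACTB1, 10 without LACTB2 and 8 without any other library. HIST2H2BE did not pass with no filter (0.168) or TPM (0.0639). Calls were also lost for TUT7 (0.0501), SNRPD3 (0.0618) and ERI1 (0.0622) without LACTB3, for XRN1 without EV1, EV3, LACTB1 or LACTB2 (up to 0.114), and for RFC3 without EV1, EV2, LACTB1 or LACTB2 (up to 0.0966). At this depth 49 of 73 histone genes had under 30 reads, and changes in them could not be tested. The causes of these changes were not tested.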
